A study of Nannochloropsis gaditana with 4 samples.

Results

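The comparison set 1 flashing-light sample of the marine microalga Nannochloropsis gaditana, strain CCAP 849/5, against the continuous-light control. The samples were chosen by column name and not by their values: the flashing-light sample is the deposited column SAMPLE 4 and the control is SAMPLE 1. They are 2 of the 4 samples of the series, and all 44 measured genes were kept, 36 targets and 8 reference genes. Both cultures were grown in batch for 13 days in flasks of 250 mL with a light path of 3.7 cm, under a time-averaged light of 300 µmol s-1 m-2. The control received it continuously, whereas the flashing-light cultures of the series received it in flashes of 6000 µmol s-1 m-2 with a duty cycle of 0.05, at 5, 50 or 500 Hz. No header ties SAMPLE 4 to one of these frequencies, and none is stated here. Each condition is 1 sample, the design text speaks of pooled RNA, and each gene carries 3 numbered repeats. What a repeat was, for example a separate culture or a further well of one plate, the sources used here do not say.

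Flashing light delivers photons in short intense pulses separated by darkness, so that an alga meets excess light and darkness in quick alternation at an unchanged mean light. Algae meet excess light by changing the size of the light-harvesting antenna and by the xanthophyll cycle, in which violaxanthin is converted to zeaxanthin, which favours the release of absorbed energy as heat. Nannochloropsis is known for storing fixed carbon as triacylglycerol, made from plastid fatty acids and glycerol-3-phosphate, and this storage increases when nitrogen runs short. The comparison addresses how the delivery of light in flashes relates to the transcripts of these pathways.

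None of the 36 targets changed in SAMPLE 4 by the rule of size used here, a mean change of at least 2-fold that also exceeds 2 propagated SDs, against 0% of all 44 genes. The propagated SD combines the SDs of the log2 values over the 3 repeats of both samples, as the square root of the sum of their squares. The targets lay between 0.688 times the control level for nitrate reductase NR and 1.25 times for BC, the ligase that attaches biotin to acetyl-CoA carboxylase. Of the 36 targets, 28 were within 0.25 of the control on the log2 scale, and the median target stood at a log2 change of −0.08. The lists of at least 7 genes were fatty acid synthesis, glycerolipid assembly, and pigments and light harvesting, the last formed by joining smaller lists. Among them the pigment genes stood lowest, at a median of −0.21 for 7 genes, and at −0.06 without repeat 2 of both samples. The genes of fatty acid synthesis stood highest, at 0.11 for 8 genes. The 2 genes of nitrogen assimilation had a median of −0.31. A single sample stood for each condition, so the comparison is a description without a test. The RNA came from whole cultures, in which fewer cells holding a transcript and less of it per cell cannot be told apart.

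The scatter of the repeats set a range for each gene, which covers repeat error only, since each condition is 1 sample. The propagated SD of a target ran from 0.08 to 0.78 with a median of 0.26. For 33 of 36 it was below 0.5, so that a measured mean change of 2-fold would have met both parts of the rule. How often a true 2-fold change would be measured as 2-fold or more was not tested. With the authors' reference genes, the change with 2 propagated SDs on either side stayed within 2-fold for 28 of the 36 targets. This count was not recomputed under other references. The other 8 were NR, VCP1, VDE1, KAR1, KAS, ENR1, LCS1 and O6FADes1, for which a 2-fold difference lies inside that range.

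**Figure D1:**
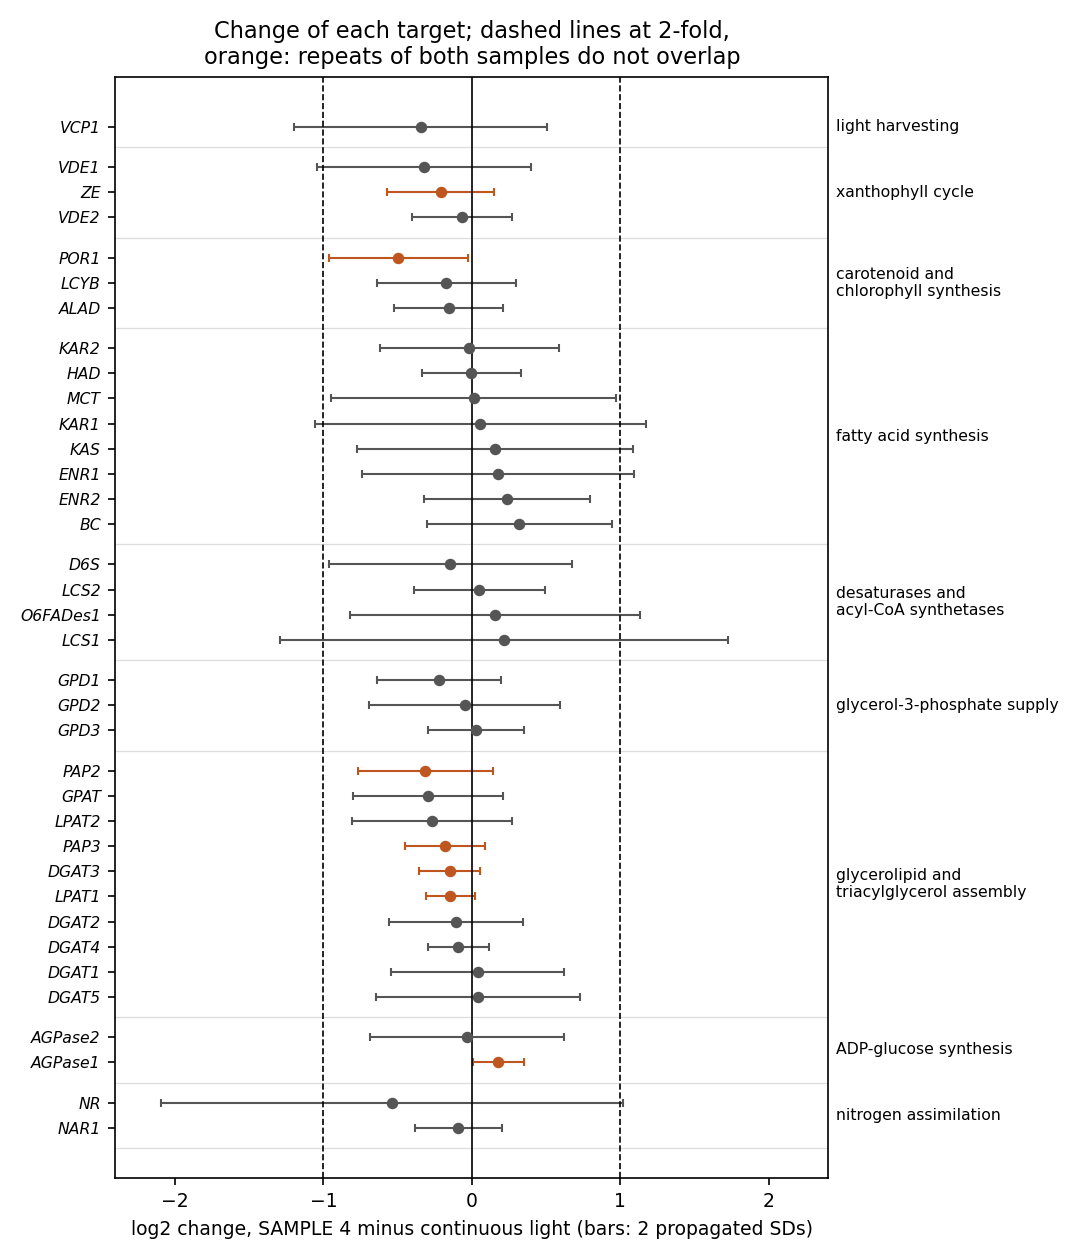
Log2 change of the 36 targets, SAMPLE 4 minus continuous light, grouped by function. Points are means of 3 repeats and bars are 2 propagated SDs. All points lie between the dashed 2-fold lines, and the bars of 8 genes cross a line. Orange marks the 7 targets whose repeats did not overlap between the samples.

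Values are relative quantities from real-time PCR with SYBR Green, whose fluorescence on binding DNA duplexes reports the product of each cycle. The authors scaled each gene to the highest of its 12 values and divided by a factor from cyclophilin CYP, a protein-folding enzyme, and PAP1, a phosphatidic acid phosphatase. A value therefore compares samples within a gene and never 2 genes. The factor was 0.921, 1.02 and 1.03 in the 3 repeats of the control and 1.17, 1.49 and 0.757 in those of SAMPLE 4. Repeat 2 of SAMPLE 4 held the highest value before normalization in 25 of the 44 genes, among them CYP and PAP1, and each of these 25 therefore carries a normalized value of 0.673 there.

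The reference genes gave little difference between the 2 samples, though with unequal precision. CYP stood at −0.02 ± 0.07 and PAP1 at 0.02 ± 0.07, which their use in the factor makes equal and opposite. Actin ACT, at 0.01 ± 0.27, glyceraldehyde-3-phosphate dehydrogenase GAPDH of glycolysis, at 0.01 ± 0.23, and translation elongation factor TEF1, at 0.01 ± 0.50, were not used in the factor. The ubiquitin family gene UFP stood at −0.21 ± 0.29, alpha tubulin AT1 at −0.19 ± 0.51 and beta tubulin BT at 0.28 ± 0.87. BT measured 0.428, 0.457 and 0.975 in the control and 0.625, 0.502 and 1.08 in SAMPLE 4. Repeat 3 was high in both samples, and the samples overlapped.

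All 7 genes of pigments and light harvesting stood below the control, and none passed the rule of size. The sign was negative under each of the 11 other references for VCP1, VDE1, ZE and POR1, but turned positive with AT1 or UFP alone for ALAD and LCYB, and for VDE2 also with no reference or when values were centred on the median target. Over all targets 7 of 36 had repeats that did not overlap with the control, against 15.9% of the 44 genes. Of the pigment genes 2 of 7 had repeats wholly below those of the control, POR1 and ZE, against 13.6% of all 44 genes. Among the 11 other references, POR1 stayed apart with CYP, PAP1, GAPDH or UFP alone and after centring, and ZE with PAP1 alone only.

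POR1, the light-dependent enzyme that reduces protochlorophyllide on the way to chlorophyll, had the clearest difference of the list. It measured 0.476, 0.588 and 0.510 in the control and 0.416, 0.326 and 0.375 in SAMPLE 4. Each repeat of SAMPLE 4 lay below each repeat of the control. The mean was 0.525 ± 0.0572 (SD, n = 3) in the control and 0.372 ± 0.0448 (SD, n = 3) in SAMPLE 4, which is 0.708 times the control and a log2 change of −0.50 ± 0.23. POR1 and AGPase1 were the 2 of 36 targets beyond 2 propagated SDs, against 4.55% of all genes, and both only just, at 2.12 and 2.05 propagated SDs. POR1 was also beyond them in 4 of 17 alternative calculations and AGPase1 in 6. For AGPase1 these include differences within repeat numbers and the deposited fold table, which are the same calculation.

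The antenna gene VCP1, which encodes a protein binding violaxanthin and chlorophyll, measured 0.298, 0.480 and 0.335 in the control and 0.314, 0.238 and 0.312 in SAMPLE 4. The samples overlapped, and only repeat 2 of each stood away from the remaining repeats, upward in the control and downward in SAMPLE 4. The log2 change was −0.35 ± 0.42, and −0.01 without repeat 2 of both samples.

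In VDE1 and ZE of the xanthophyll cycle, repeat 2 was likewise the highest of the control and the lowest of SAMPLE 4. VDE1, a violaxanthin de-epoxidase, measured 0.716, 0.976 and 0.648 in the control and 0.700, 0.541 and 0.614 in SAMPLE 4, a log2 change of −0.32 ± 0.36. ZE, named zeaxanthin de-epoxidase in the tables, measured 0.762, 0.886 and 0.718 in the control and 0.702, 0.633 and 0.707 in SAMPLE 4, a log2 change of −0.21 ± 0.18. The VDE1 repeats overlapped between the samples, whereas those of ZE were separated by a narrow gap. VDE2, the second violaxanthin de-epoxidase, measured 0.430, 0.477 and 0.470 in the control and 0.422, 0.406 and 0.493 in SAMPLE 4. In VDE2 repeat 2 lay close to repeat 3 in the control and to repeat 1 in SAMPLE 4. Its samples overlapped, and its change of −0.06 ± 0.17 kept it within 2-fold with 2 propagated SDs on either side. Lycopene beta cyclase LCYB, which forms the rings of beta-carotene, stood at −0.17 ± 0.23, and ALAD, named for 5-aminolevulinic acid, the precursor of chlorophyll and haem, at −0.16 ± 0.18.

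The control repeat 2 was the highest of the 3 control repeats in 7 of these 7 genes, against 17 of all 36 targets. Repeat 2 of SAMPLE 4 was the lowest in 6 of the 7, against 19 of all 36 targets. Without repeat 2 of both samples the median of the 7 genes was −0.06 in place of −0.21, and it was −0.30 without repeat 1 or without repeat 3. Repeat 2 of SAMPLE 4 was also the one with the highest factor, 1.49, and the part of this factor in the lower values was not tested. POR1 kept the same side without repeat 2, at −0.32.

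**Figure D2:**
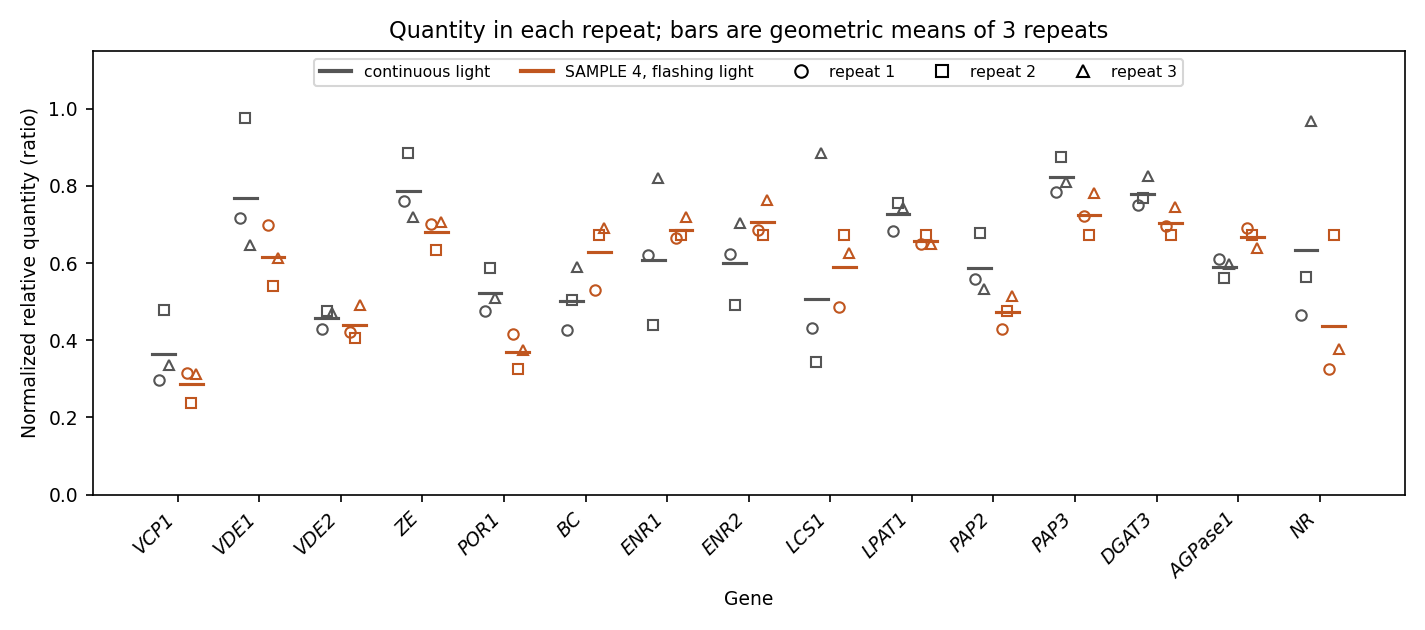
Normalized relative quantity in each of the 3 repeats for the 15 targets given in full, in continuous light (grey) and SAMPLE 4 (orange), with the geometric mean as a bar. Repeat 2 (squares) is high in the control and low in SAMPLE 4 for VCP1, VDE1, ZE and POR1, and repeat 3 of the control (triangles) is high for NR, LCS1 and ENR1.

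Fatty acids are built in the plastid by carboxylation of acetyl-CoA, transfer of malonyl groups to acyl carrier protein and repeated cycles of condensation, reduction, dehydration and reduction. Of the 8 genes listed under fatty acid synthesis 6 stood above the control, with a range from −0.02 to 0.32. The list includes BC and KAS, whose names, a biotin ligase and a ketoacyl-CoA synthase, are not steps of the pathway as given. None passed the rule of size and none had repeats apart from those of the control. With BT alone as reference, 7 of the 8 stood below it, all but BC.

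BC, named biotin-acetyl-CoA-carboxylase ligase, measured 0.428, 0.503 and 0.590 in the control and 0.531, 0.673 and 0.691 in SAMPLE 4. The samples overlapped in the middle of the range, with the lowest repeat of SAMPLE 4 below the highest of the control. The log2 change was 0.32 ± 0.31, and BC was the target highest above the control. It was positive under each of the 11 other references, from 0.04 with BT to 0.53 with UFP.

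The enoyl-ACP reductases complete each elongation cycle. ENR2 measured 0.623, 0.492 and 0.705 in the control and 0.686, 0.673 and 0.764 in SAMPLE 4, a log2 change of 0.24 ± 0.28. ENR1 measured 0.622, 0.439 and 0.821 in the control and 0.664, 0.673 and 0.720 in SAMPLE 4, a log2 change of 0.17 ± 0.46. The control spanned a wide range for both genes. SAMPLE 4 lay within that range for ENR1 and reached above it in repeat 3 for ENR2. For ENR2 the change was 0.28 without repeat 1 of both samples, 0.13 without repeat 2 and 0.30 without repeat 3. For ENR1 it was 0.21, −0.05 and 0.36 in the same order, so that its sign turned without repeat 2.

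The remaining genes of fatty acid synthesis were at or near the control level. The ketoacyl-CoA synthase KAS stood at 0.15 ± 0.46, the ketoacyl-ACP reductases KAR1 and KAR2 at 0.06 ± 0.56 and −0.02 ± 0.30, and the malonyl-CoA:ACP transacylase MCT, which loads malonyl groups onto the carrier protein, at 0.01 ± 0.48. HAD, the dehydratase of the cycle, measured 0.462, 0.544 and 0.532 in the control and 0.507, 0.475 and 0.550 in SAMPLE 4. Its change of −0.005 ± 0.17 placed it closest of all targets to the control. Control repeat 3 was the highest control repeat in 6 of the 8 genes, against 17 of all 36 targets. The median of the list was 0.27 without repeat 3 of both samples and 0.03 without repeat 1.

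Desaturases insert double bonds into fatty acids, and acyl-CoA synthetases activate free fatty acids for use in lipid synthesis. The omega 6 desaturase O6FADes1 stood at 0.15 ± 0.49 and D6S, named delta 6 saturase in the tables, at −0.15 ± 0.41. LCS1, a long-chain acyl-CoA synthetase, measured 0.431, 0.344 and 0.885 in the control and 0.487, 0.673 and 0.627 in SAMPLE 4. The high repeat 3 of the control reached above all 3 repeats of SAMPLE 4, and the change was 0.22 ± 0.75. Without repeat 3 it was 0.57, and without repeat 2 it was −0.16, so its sign rested on the choice of repeats. The second synthetase LCS2 stood at 0.05 ± 0.22. Control repeat 3 was the highest control repeat in 4 of these 4 genes, against 17 of all 36 targets.

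Of the 10 genes that assemble glycerolipids and triacylglycerol 8 stood below the control, with a median of −0.15. None passed the rule of size. In 4 of 10 the repeats lay wholly below the control, PAP2, PAP3, DGAT3 and LPAT1, beside 6 of all 44 genes, the 13.6% given above. With CYP alone as reference only LPAT1 and DGAT3 of these 4 stayed apart, and with PAP1 alone only LPAT1, PAP2 and PAP3. Under the remaining references, no reference and centring included, none of the 4 was apart. The median of the list was 0.05 with AT1 and 0.06 with UFP as reference, so that its side depends on the reference.

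PAP2, a phosphatidic acid phosphatase, which releases the diacylglycerol used for triacylglycerol, measured 0.560, 0.679 and 0.532 in the control and 0.430, 0.475 and 0.516 in SAMPLE 4. The samples did not overlap, by a gap that was small beside the spread within the control. The log2 change was −0.31 ± 0.23, and it was negative under each of the 11 other references. PAP3, a further phosphatase of the same name, measured 0.785, 0.874 and 0.809 in the control and 0.722, 0.673 and 0.782 in SAMPLE 4, a log2 change of −0.18 ± 0.13. The change of PAP3 turned to 0.01 with AT1 and 0.02 with UFP as reference. Its highest repeat in SAMPLE 4 was just below its lowest in the control.

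LPAT1 and DGAT3 had small differences at high precision. LPAT1, which adds the second acyl chain to the glycerol backbone, measured 0.684, 0.755 and 0.743 in the control and 0.650, 0.673 and 0.649 in SAMPLE 4, a log2 change of −0.15 ± 0.08. DGAT3, a diacylglycerol acyltransferase of the final step to triacylglycerol, measured 0.749, 0.768 and 0.825 in the control and 0.695, 0.673 and 0.744 in SAMPLE 4, a log2 change of −0.15 ± 0.10. In both genes the repeats were separated, at 0.904 and 0.902 times the control. The sign turned with AT1 or UFP as reference, and for LPAT1 with no reference too.

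The other diacylglycerol acyltransferases stood at 0.04 ± 0.29 for DGAT1, −0.11 ± 0.23 for DGAT2, −0.09 ± 0.10 for DGAT4 and 0.04 ± 0.34 for DGAT5. GPAT, which adds the first acyl chain, stood at −0.30 ± 0.25, and LPAT2 at −0.27 ± 0.27. Glycerol-3-phosphate dehydrogenases supply the backbone, and GPD1 stood at −0.22 ± 0.21, GPD2 at −0.05 ± 0.32 and GPD3 at 0.03 ± 0.16. Each of these 9 genes overlapped with the control.

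Ratios between genes of one family do not depend on the reference, and they too moved little. Of the 22 pairs within 9 families none shifted by more than 2 propagated SDs, and the widest shift was 0.33 on the log2 scale. In 3 pairs the repeats did not overlap between the samples. These were PAP1 over PAP2, at 0.33 ± 0.19, PAP1 over PAP3, at 0.20 ± 0.12, and GPD1 over GPD3, at −0.25 ± 0.32. Both PAP pairs hold the reference gene PAP1, and PAP2 over PAP3 stood at −0.13 ± 0.17. Of the 10 DGAT pairs 0 were apart, with shifts from −0.19 for DGAT3 over DGAT5 to 0.19 for DGAT1 over DGAT3.

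**Figure D3:**
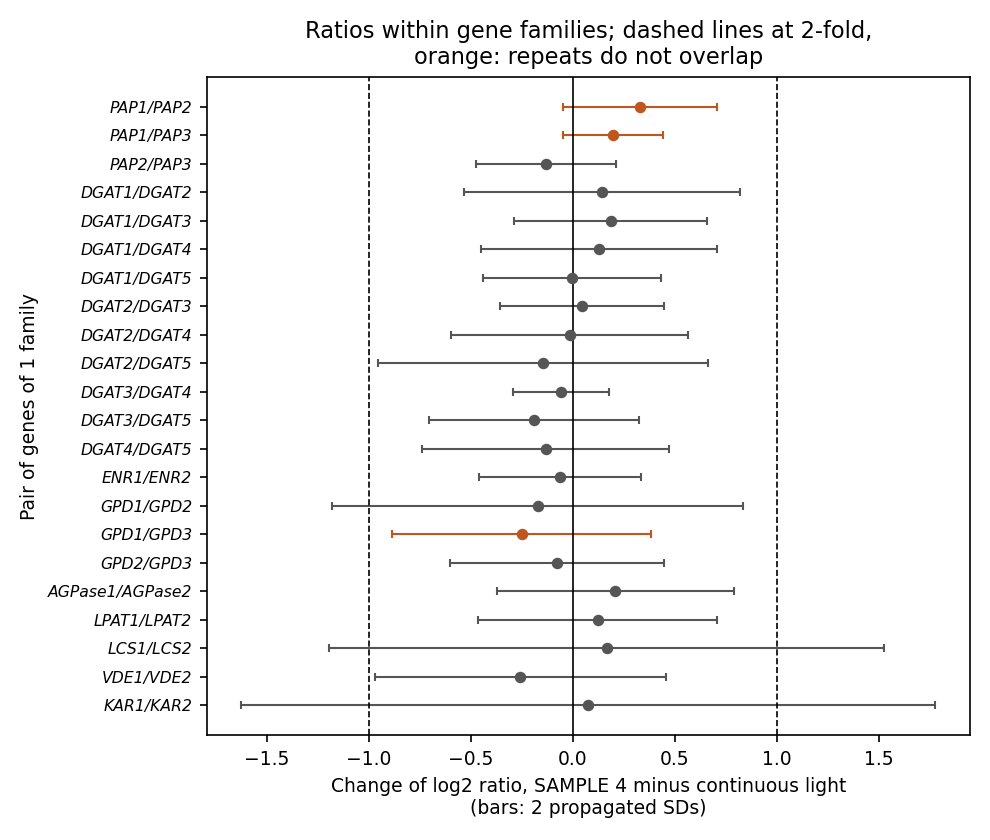
Change of the log2 ratio of 2 genes of one family, SAMPLE 4 minus continuous light, for 22 pairs in 9 families. Points are means of 3 repeats and bars are 2 propagated SDs. All bars reach 0, and orange marks the 3 pairs whose repeats did not overlap.

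ADP-glucose pyrophosphorylase joins glucose-1-phosphate to ATP and, in plants and green algae, makes the precursor of starch. AGPase1, given in the tables as glucose-1-phosphate adenylyltransferase, measured 0.611, 0.562 and 0.599 in the control and 0.690, 0.673 and 0.638 in SAMPLE 4. It was the 1 target whose repeats lay wholly above the control, against 2.27% of all genes. Its repeats stayed apart with CYP, PAP1 or UFP alone and after centring, but under no other reference. The mean was 0.590 ± 0.0258 (SD, n = 3) in the control and 0.667 ± 0.0266 (SD, n = 3) in SAMPLE 4, which is 1.13 times the control and a log2 change of 0.18 ± 0.09. With BT as reference AGPase1 stood at −0.10. The second gene of the enzyme, AGPase2, stood at −0.03 ± 0.33, and the ratio of the 2 genes shifted by 0.21 ± 0.29.

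Nitrate reductase reduces nitrate to nitrite, which NAR1-type transporters carry into the plastid in green algae. NR measured 0.466, 0.563 and 0.968 in the control and 0.327, 0.673 and 0.377 in SAMPLE 4. The repeats overlapped, since the highest of SAMPLE 4 exceeded 2 of the 3 in the control. The mean was 0.666 ± 0.266 (SD, n = 3) in the control and 0.459 ± 0.187 (SD, n = 3) in SAMPLE 4, a log2 change of −0.54 ± 0.78. It was the target lowest below the control and the one with the widest error. Without repeat 2 it stood at −0.94, without repeat 3 at −0.13 and without repeat 1 at −0.55. The nitrite transporter NAR1 stood at −0.09 ± 0.15.

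The spread of the repeats was smaller in SAMPLE 4 than in the control for 25 of 36 targets, with median log2 SDs of 0.14 and 0.19. For the fatty acid synthesis genes the median SDs were 0.10 in SAMPLE 4 and 0.35 in the control, and for the pigment genes 0.18 and 0.15. In LCS1 the log2 SD was 0.71 in the control and 0.25 in SAMPLE 4, in KAR1 0.55 and 0.10, and in ENR1 0.45 and 0.06. These 3 genes had a high repeat 3 and a low repeat 2 in the control.

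A change of reference moves all genes by the same amount. That shift ran from −0.28 with BT to 0.21 with UFP, and it moved the median target between −0.35 and 0.13. With the authors' reference 13 targets stood above the control and 23 below. The split was 27 and 9 with AT1 or UFP, 23 and 13 without a reference, 18 and 18 after centring. With BT it was 1 and 35, and BC was the gene above. The distance between lists does not move with the reference. The median of the fatty acid synthesis genes exceeded that of the pigment genes by 0.32 and that of the glycerolipid genes by 0.25. Taken by repeat number, the first distance was 0.17, 0.81 and 0.09 and the second 0.23, 0.61 and 0.05. Both distances were positive in each repeat number and widest in repeat 2. Their SDs over the repeat numbers, 0.39 and 0.28, were larger than the distances. Whether the repeat numbers pair the samples is not known. These distances were formed after the values were seen and have no test.

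**Figure D4:**
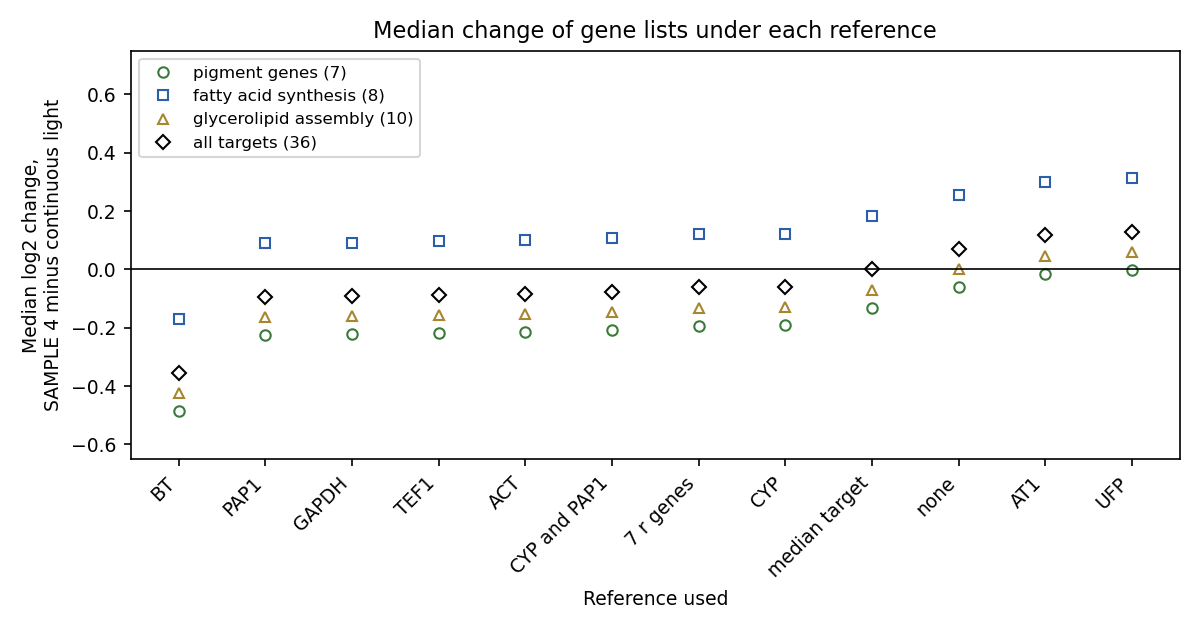
Median log2 change of the pigment, fatty acid synthesis and glycerolipid genes and of all targets, SAMPLE 4 minus continuous light, under 12 references ordered by their shift. The lists keep their order under each reference, since each shifts all genes alike. The median of all targets is below 0 with CYP and PAP1 and above it with no reference, AT1 or UFP.

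The other flashing-light columns, SAMPLE 2 and SAMPLE 3, were compared with the same control repeats, so the 3 sets of changes share them and are given side by side. VCP1 was at 1.61 ± 0.38 in SAMPLE 2, −0.07 ± 0.66 in SAMPLE 3 and −0.35 ± 0.42 in SAMPLE 4. VDE2 was at 1.26 ± 0.11, 0.06 ± 0.35 and −0.06 ± 0.17 in the same order. Both genes stood above the control in SAMPLE 2 and within 1 propagated SD of it in SAMPLE 3 and SAMPLE 4. For POR1 the values were 1.00 ± 0.19, 0.15 ± 0.56 and −0.50 ± 0.23, and for NR −2.03 ± 0.58, −1.15 ± 0.57 and −0.54 ± 0.78. In these 4 genes SAMPLE 3 lay between the other two. AGPase1 was at −0.64 ± 0.16, −0.16 ± 0.16 and 0.18 ± 0.09, and BC at −0.43 ± 0.33, −0.22 ± 0.43 and 0.32 ± 0.31. Other genes had their lowest value in SAMPLE 3, such as ENR1 at 0.39 ± 0.46, −0.25 ± 0.49 and 0.17 ± 0.46, ENR2 at 0.48 ± 0.27, −0.14 ± 0.39 and 0.24 ± 0.28, and LCS1 at 0.16 ± 0.77, −0.36 ± 0.76 and 0.22 ± 0.75. PAP3 was close to level, at −0.20 ± 0.09, −0.14 ± 0.40 and −0.18 ± 0.13. The median of the fatty acid synthesis genes was 0.44, −0.23 and 0.11. The median of the 36 targets was 0.20 in SAMPLE 2, −0.04 in SAMPLE 3 and −0.08 in SAMPLE 4. Whether the flashing-light samples differ from each other was not tested, since each is 1 sample.

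**Figure D5:**
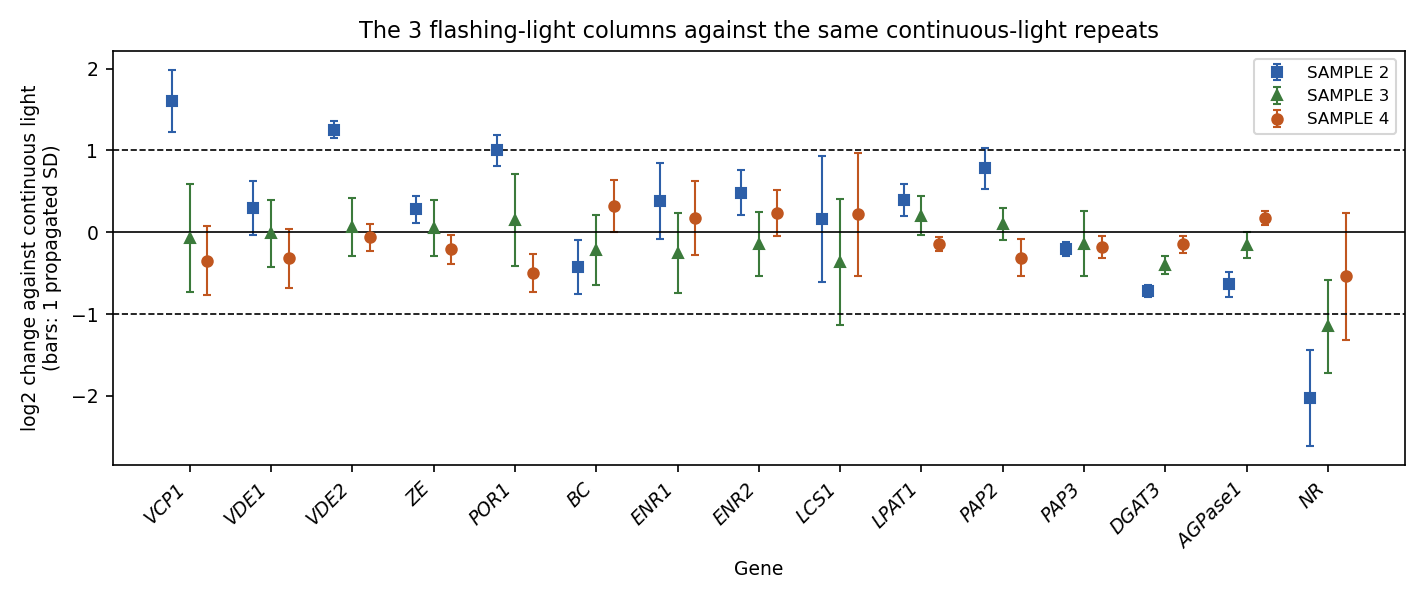
Log2 change against the same continuous-light repeats for 15 targets in SAMPLE 2, SAMPLE 3 and SAMPLE 4, with 1 propagated SD as bars. All points of SAMPLE 4 lie between the dashed 2-fold lines, whereas VCP1, VDE2, POR1 and NR lie at or beyond them in SAMPLE 2 and NR also in SAMPLE 3.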

How the data were processed

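Per the file headers, the authors deposited a table of non-normalized values, the same values normalized to housekeeping genes, and a table of fold changes, test over control. All are linear ratios with 132 rows, 44 genes in 3 repeats. The normalized values of the authors equalled the non-normalized ones divided by a factor from CYP and PAP1 for 43 genes, within 0.1%. The normalized row of MCT is not a measurement, so MCT was computed from its non-normalized values and the factor. Rows were joined in order, as 4 row identifiers are mistyped in the non-normalized table. The control column was taken from the fold table, whose divisor it is.

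Changes are differences of mean log2 values over 3 repeats, with no pseudocount or filter. Calculations used Python 3.11.15 and numpy 2.4.6 and were tested on simulated data. With threshold cycles absent, the depth behind a value is unknown. Repeats are not known to be separate cultures, so errors may be technical.

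The members, gene lists and rules were chosen with earlier results of these data known. Given in full were targets past a rule, targets with repeats apart, the 5 highest and 5 lowest changes, and NR, VCP1 and VDE2. The alternatives were other references, the median of repeats, repeats left out, differences within repeat numbers, the deposited fold table and other thresholds.

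Locus identifiers of the genes are not reported here.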

Additional observations from a re-analysis of the deposited data

Results flagged for a closer look

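In 5 of 72 checks, all repeats of SAMPLE 4 lay on one side of every continuous-light repeat while all repeats of SAMPLE 2 lay on the other side. Only the 7 targets already apart between SAMPLE 4 and the control could meet this condition. No target met this condition with SAMPLE 3. The control repeats are shared and each sample is single, so the difference was not tested. SAMPLE 4 minus SAMPLE 2 was −1.4995 on the log2 scale for POR1 of chlorophyll synthesis, −1.10 for PAP2 and −0.54 for LPAT1 of glycerolipid assembly, −0.49 for ZE of the xanthophyll list and 0.81 for AGPase1 of ADP-glucose synthesis.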

How the results depend on the processing

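The count of targets past the rule of size was 0 in each of 20 alternatives. Of these, only the median of repeats and the left-out repeats could have given another count. All targets lay between 0.688 and 1.25 times the control, so 1.5-fold, 3-fold and no condition on the error could give no other count. A reference shifts all genes alike, and the largest change under the 11 other references was −0.81, for NR with BT, short of 2-fold. Differences within repeat numbers and the deposited fold table, with MCT left out, could give no other count either, since they kept the mean log2 change of each gene. Among 532 recomputed values, these unchanged ones included, 459 stayed within the repeat spread (counts: within 1.5 times the reported one) and 73 did not. The cause was not tested beyond the shift a reference gives to all genes. The median target was 0.12 with AT1, 0.13 with UFP, −0.35 with BT and 0.071 with no reference. The counts below were added after seeing the data. The count beyond 2 propagated SDs (2 as reported) was 0 with ACT, TEF1, GAPDH, BT, the 7 genes with an r prefix or no reference. It was 1 with CYP, PAP1, AT1, UFP, centring or the median of repeats, 4 with the deposited fold table, and 1 to 4 with a repeat left out. With AT1 the 1 target was KAS and with the median of repeats LPAT1, neither of them POR1 or AGPase1. The count of targets with repeats apart (7 as reported) was 0 with TEF1, BT or no reference, 1 with the 7 genes and 2 with ACT, GAPDH or UFP. It was 3 after centring, 4 with AT1, 6 with CYP and 9 with PAP1. With a repeat left out it was 11 to 21, where 2 repeats separate more easily than 3. The genes apart also changed. They were BC and GPAT with ACT, KAS, BC, MCT and DGAT5 with AT1, and BC with the 7 genes. None of these is among the 7 reported. Taking differences within repeat numbers, as a replicate block, gave 4 targets beyond 2 SDs, AGPase1, LPAT1, DGAT3 and BC. The deposited fold table holds ratios within repeat numbers, so its 4 targets are the same ones and come from the same calculation. The deviations of same-numbered repeats correlated at 0.55, −0.38 and 0.03 over 36 targets. Whether the repeat numbers pair the samples was not tested further.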
